A study of Mus musculus with 2 samples.

Results

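*Scart1* and *Scart2* are 2 of the 33696 genes counted in mouse lung cells by single-cell RNA sequencing (scRNA-seq), with the identifiers ENSMUSG00000025461 and ENSMUSG00000054672. They were chosen by name, with their pattern over T cells already known from earlier results of these data, so their levels are given as a description without a test. The library labelled GFI1 KO (KO-labelled below) is described as from an adult mouse with a germline knockout of *Gfi1*, a deletion that would be shared by every cell type. The library labelled GFI1 WT (WT-labelled below) is described as from an adult mouse with the gene intact, and the study's methods give the background as C57BL6/J. In both, live lung cells were sorted and profiled with the 10x Genomics 3′ chemistry, and no other allele or treatment is given for them. There was 1 library per genotype, so genotype, mouse and library cannot be told apart and no value has a spread between mice.

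Both genes encode membrane proteins of the scavenger receptor cysteine-rich family, the family that also holds the T-cell surface proteins CD5 and CD6. They are best known in γδ T cells, which carry a receptor made of γ and δ chains in place of the αβ receptor of CD4 and CD8 T cells. Among γδ T cells that make interleukin 17, *Scart1* is known as a marker of those using the variable segment *Trgv6*, often paired with *Trdv4*, and *Scart2* as a marker of those using *Trgv4*. GFI1 is a zinc-finger protein that represses transcription in blood cells and their precursors.

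The KO-labelled library held 10700 cells with 116825535 unique molecular identifiers (UMIs, one for each captured RNA molecule), and the WT-labelled library held 19515 cells with 162599284 UMIs. After filtering, 10495 and 19342 cells remained, with medians of 11076 and 6217 UMIs. T cells formed a compartment of 947 and 2811 cells, with medians of 7046 and 6309 UMIs. The targeted gene did not follow the labels. *Gfi1* gave 109 UMIs in KO-labelled T cells and 135 in WT-labelled T cells, or 17.6 CPM (UMIs for every 1000000 UMIs of the class, 14.4 to 21.2) and 8.58 CPM (7.19 to 10.2). The chemistry reads the 3′ end of a transcript, and a 3′ end outside the deleted part checks nothing, so directions are given between labels only. All intervals are exact 95% intervals, the limit allowed by a count of 0 is that of 3 counts, and both cover counting error only. Both libraries shared 74 cell barcodes, and 3 of the 367 KO-labelled cells with a *Scart1* UMI carried one of these.

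The 2 genes could be told apart by exact runs in their annotated transcripts. Their annotated transcripts (GENCODE M21 on GRCm38, 7 for *Scart1* and 5 for *Scart2*) shared 0 runs of 91 bases, taken as the read length. Their longest shared run had 23 bases and lay inside the coding part of both. It began at coding base 2398 of *Scart1*, whose coding sequence had 2967 bases, and at coding base 2755 of *Scart2*, whose coding sequence had 3336 bases. This run is shown because it is the longest exact match between the annotated transcripts. Matches with mismatches and reads from outside these transcripts were not examined, nor was the build used for counting (GRCm39).
Shared coding run: tcatggggcacagtgtgtgacga

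The genes are neighbours on chromosome 7, with 1 annotated gene between their symbols. The 250 bases before each start site were read from the RefSeq promoter table (GRCm38.p6, forward strand). They are shown because GFI1 represses through promoters and the levels of both genes differed between the labels. Capitals mark the letters AATC, the core of the sequence that GFI1 binds, searched as AATC or GATT so that both strands were covered.
*Scart1*, chr7:140218017-140218266: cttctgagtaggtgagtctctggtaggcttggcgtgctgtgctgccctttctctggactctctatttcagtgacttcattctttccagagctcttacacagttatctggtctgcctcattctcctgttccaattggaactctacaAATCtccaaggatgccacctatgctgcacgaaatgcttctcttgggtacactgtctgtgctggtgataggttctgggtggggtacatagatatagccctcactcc
*Scart2*, chr7:140247051-140247300: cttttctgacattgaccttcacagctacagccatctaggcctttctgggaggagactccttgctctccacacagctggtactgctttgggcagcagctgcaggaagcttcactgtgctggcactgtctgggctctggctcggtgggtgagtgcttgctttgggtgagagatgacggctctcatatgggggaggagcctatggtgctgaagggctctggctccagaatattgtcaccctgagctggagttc

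The *Scart1* window held 1 such core, with its first base at position -105 from the start site. The 3 *Scart2* windows in the table held 0. The core is short, and 69.0% of 32851 windows of 250 bases held it, so its presence or absence here separates neither gene from other genes.

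The UMIs of both genes lay in T cells. Of the KO-labelled UMIs, 2682 of 2855 *Scart1* UMIs (93.9%) and 436 of 454 *Scart2* UMIs (96.0%) were in the T compartment. For WT-labelled cells, it held 263 of 308 *Scart1* UMIs (85.4%) and 235 of 275 *Scart2* UMIs (85.5%). Within KO-labelled cells, the type 17 γδ-like cluster held 43.2% of all *Scart1* UMIs and the 3 CD8-like clusters together 35.3%. For *Scart2*, the same clusters held 48.5% and 28.4%. The clusters were built without these genes among the variable genes.

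In the T compartment, the KO-labelled level of *Scart1* was 432 CPM (416 to 449) and the WT-labelled level 16.7 CPM (14.7 to 18.9), or a ratio of 25.9 (22.8 to 29.5). *Scart2* reached 70.3 CPM (63.8 to 77.2) and 14.9 CPM (13.1 to 16.97), or a ratio of 4.71 (4.01 to 5.54). With each cell thinned to 1500 UMIs, 21.7% of 938 KO-labelled and 0.932% of 2781 WT-labelled T cells had a *Scart1* UMI, after 9 and 30 shallower cells were left out. Without thinning, the shares were 32.8% and 1.96%. The compartment included clusters that could not be named, of 161 and 390 cells, of which 58.4% and 61.0% were called doublets. In the named T-cell clusters alone, *Scart1* was 616 CPM (591 to 640) and 19.2 CPM (16.7 to 22.0), or a ratio of 32.0 (27.9 to 37.0), and *Scart2* had a ratio of 6.29 (5.26 to 7.53). For *Scart2*, the thinned shares were 6.72% and 1.00%, and the unthinned ones 15.3% and 2.06%. A class that should lack both genes gave the background. In alveolar macrophage-like cells, with medians of 13305 and 13769.5 UMIs per cell, thinned *Scart1* shares were 0.0335% and 0.0471%.

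The make-up of the T compartment differed between the labels along with the levels. Type 17 γδ-like cells were 15.4% of KO-labelled and 2.45% of WT-labelled T cells, and memory CD8-like cells were 19.9% and 3.91%. Naive CD8-like cells were 13.3% and 33.5%. The KO-labelled class levels weighted by the WT-labelled make-up gave 238 CPM of *Scart1*, and the WT-labelled levels weighted by the KO-labelled make-up gave 58.0 CPM. Both lay between the measured 432 and 16.7 CPM. For *Scart2*, the same exchange gave 43.2 and 56.4 CPM, between the measured 70.3 and 14.9 CPM. The KO-labelled level of type 1 γδ-like cells used here rests on 7 cells, while that class was 5.98% of WT-labelled T cells. The unnamed clusters with many called doublets were also included. Within these limits, neither exchange between these classes gave the whole difference. A class can itself mix unlike cells, and make-up within a class was not exchanged. Its part in the class levels was not tested.

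**Figure D1:**
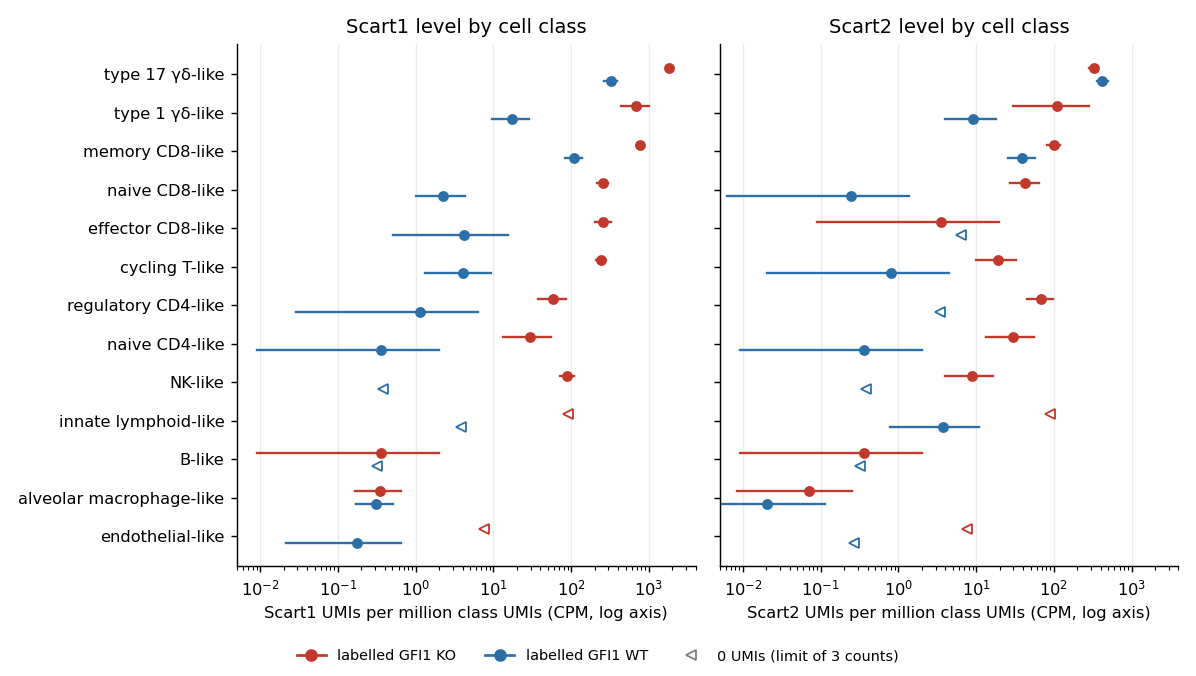
*Scart1* (left) and *Scart2* (right) levels in CPM on a log axis, for 13 cell classes in the KO-labelled (red) and WT-labelled (blue) libraries; points are levels, lines are exact 95% Poisson intervals and open triangles mark the limit of 3 counts where a class had 0 UMIs. *Scart1* was highest in type 17 γδ-like cells under both labels, at 1835 and 326 CPM, and the KO-labelled level lay above the WT-labelled one in every T class shown, while the *Scart2* intervals of type 17 γδ-like cells overlapped.

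The type 17 γδ-like cluster did not wholly follow its name. It raised 13 of 13 γδ T-cell markers and 22 of 24 genes of the type 17 γδ program, the set of genes shared by interleukin 17-producing γδ T cells. However, only 66 of its 146 KO-labelled and 18 of its 69 WT-labelled cells had a UMI of *Trdc*, the constant segment of the δ chain. The 80 and 51 cells without one carried *Trac*, the constant segment of the α chain, at 379 and 398 CPM, near the 390 and 415 CPM of memory CD8-like cells. The cluster is therefore described as a whole and by *Trdc*.

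In the whole type 17 γδ-like cluster, *Scart1* gave 1234 UMIs under the KO label and 112 under the WT label. The levels were 1835 CPM (1734 to 1941) and 326 CPM (268 to 391.8), or a ratio of 5.64 (4.64 to 6.90). A *Scart1* UMI was found in 79 of 146 KO-labelled and 17 of 69 WT-labelled cells, or 54.1% and 24.6%. Thinned to 1500 UMIs, the shares were 50.8% and 17.8%, with 0 and 1 cells left out. *Scart2* went the other way by a small amount, with 220 and 144 UMIs, 327 CPM (285 to 373) and 419 CPM (353 to 493), and a ratio of 0.782 (0.631 to 0.971). Its thinned shares of cells were 24.7% and 26.7%, and the unthinned ones 37.0% and 39.1%.

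The cells with a *Trdc* UMI held *Scart1* almost without exception under the KO label. Of these 66 cells, 65 had a *Scart1* UMI and 4 a *Scart2* UMI. Their *Scart1* level was 3147 CPM (2965 to 3338) against 1289 CPM (1045 to 1572) in the 18 WT-labelled cells with *Trdc*, a ratio of 2.44 (1.98 to 3.04). Of those 18 cells, 9 had a *Scart1* UMI and 12 a *Scart2* UMI. In the cells with *Trdc*, the KO-labelled level of *Scart2* was 31.1 CPM (15.5 to 55.7) and the WT-labelled one 1116 CPM (890 to 1382), or a ratio of 0.0279 (0.0134 to 0.0525).

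Cells of the cluster without a *Trdc* UMI showed the opposite direction for *Scart2*. Under the KO label, 50 of 80 had a *Scart2* UMI, at 655 CPM (569 to 750), and under the WT label 15 of 51, at 223 CPM (170 to 287). The ratio was 2.93 (2.19 to 3.98). Their *Scart1* levels were 382 CPM (318 to 457) and 55.8 CPM (31.2 to 92.1), or a ratio of 6.85 (3.995 to 12.6), with the gene in 14 of 80 and 8 of 51 cells. A cell without a *Trdc* UMI can still be a γδ T cell whose *Trdc* RNA was missed. Summed over both γδ-like clusters, KO-labelled cells had 316 CPM and WT-labelled cells 125 CPM of *Scart2*, a ratio above 1. That sum mixes different cells, since 146 of 153 KO-labelled cells came from the type 17 cluster and 168 of 237 WT-labelled cells from the type 1 cluster. Its direction turned when γδ T cells were chosen by single markers, where the log2 ratio was -1.92, or by *Trdc* and the antibody tags, where it was -3.64.

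**Figure D2:**
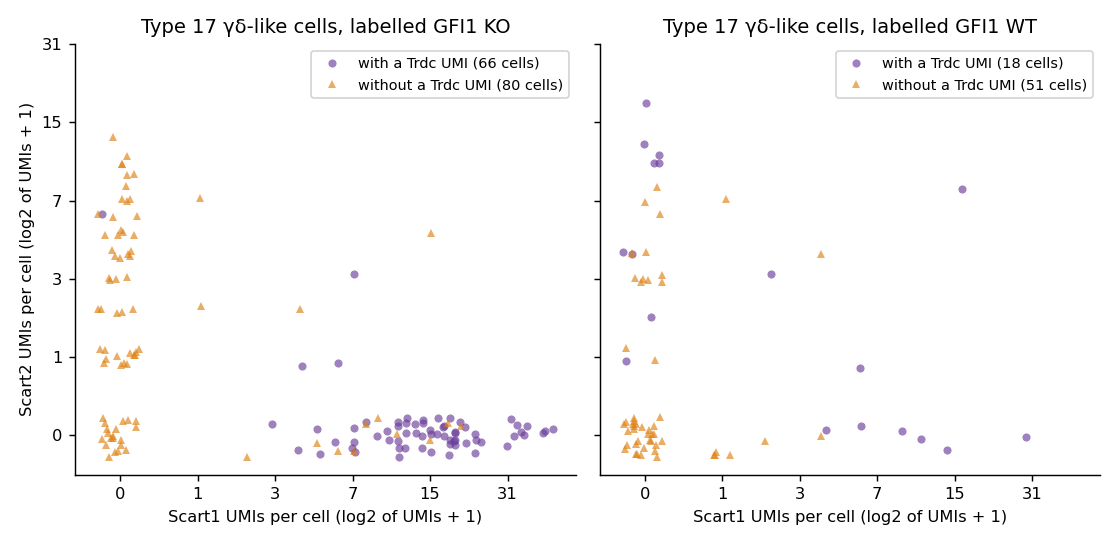
*Scart1* (horizontal) against *Scart2* (vertical) UMIs per cell, as log2 of UMIs plus 1 with a small random shift, for every cell of the type 17 γδ-like cluster in the KO-labelled (left, 146 cells) and WT-labelled (right, 69 cells) libraries; circles had a *Trdc* UMI and triangles had none. KO-labelled cells with *Trdc* line the lower edge with *Scart1* and without *Scart2*, those without *Trdc* line the left edge, and only 7 KO-labelled cells had both genes.

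The 2 genes mostly marked different cells of this cluster. In KO-labelled cells, 72 had *Scart1* only, 47 *Scart2* only, 7 both and 20 neither. *Scart2* was thus found in 8.86% (3.64 to 17.4) of the cells with *Scart1* and 70.1% (57.7 to 80.7) of those without, with medians of 5597 and 4796 UMIs per cell. The WT-labelled counts were 12, 22, 5 and 30, and the shares 29.4% (10.3 to 56.0) and 42.3% (28.7 to 56.8), so the intervals overlapped. Of the KO-labelled memory CD8-like cells, 102 had *Scart1* only, 21 *Scart2* only, 25 both and 40 neither, and *Scart2* was in 19.7% (13.2 to 27.7) of cells with *Scart1* and 34.4% (22.7 to 47.7) of the others. For WT-labelled memory CD8-like cells the order was the other way, with *Scart2* in 4 of 16 cells with *Scart1* (7.27 to 52.4%) and 10 of 94 others (5.22 to 18.7%), and the intervals overlapped under both labels.

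The variable segments of the γδ receptor sorted the 2 genes in part. These were read over both γδ-like clusters, and a segment was seen only in cells where its RNA was captured. All 29 KO-labelled cells with a *Trgv6* UMI had *Scart1*, at 2898 CPM (2662 to 3150), and 0 had *Scart2*, which allows a level of up to 15.7 CPM. All 47 KO-labelled cells with a *Trdv4* UMI had *Scart1*, at 3072 CPM (2866 to 3289), and again 0 had *Scart2*. Over the whole KO-labelled T compartment, 34 of 35 cells with *Trgv6* and 52 of 55 with *Trdv4* had *Scart1*, and 1 cell of each had *Scart2*. The 10 KO-labelled cells with *Trgv4* were mixed. Of these, 4 had *Scart1*, at 559 CPM (365 to 820), and 5 had *Scart2*, at 516 CPM (331 to 768). Of the 6 WT-labelled cells with *Trgv4*, 0 had *Scart1* and only 1 had *Scart2*, on 1 UMI. *Trgv2*, another segment of the γ chain, was seen in 20 KO-labelled cells, of which 14 had *Scart1*, and in 49 WT-labelled cells, of which 4 had it. The *Scart1* levels of these *Trgv2* cells were 2552 CPM (2263 to 2866) and 147 CPM (105 to 201). Of the pooled cells, 146 of 153 KO-labelled ones were type 17 γδ-like, and 168 of 237 WT-labelled ones were type 1 γδ-like. The 2 levels may therefore come from different kinds of cells, and *Trgv2* cells were not compared within a cluster. The same limit holds for *Trgv1*, a further γ-chain segment. *Scart1* was in 5 of 6 KO-labelled cells with *Trgv1*, at 2045 CPM (1682 to 2463). Under the WT label, it was in 1 of 16 such cells, at 21.5 CPM (2.61 to 77.7). Under the WT label, *Trgv6* was seen in only 5 cells of the whole T compartment, of which 3 had *Scart1*, and *Trdv4* in 9, of which 6 had it. *Scart2* was at 0 in all of these WT-labelled cells with *Trgv6* or *Trdv4*.

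The type 1 γδ-like cluster, whose members share genes with interferon γ-producing cells, held only 7 KO-labelled against 168 WT-labelled cells. It raised 11 of 16 genes of the type 1 γδ program but only 4 of 13 γδ T-cell markers. Some of its cells had no *Trdc* UMI, and 9 WT-labelled *Scart1* UMIs lay in such cells. *Scart1* gave 25 UMIs in 3 of the 7 cells, with 19 in a single cell, and 15 UMIs in 5 of the 168. The levels were 683 CPM (442 to 1008) and 17.2 CPM (9.63 to 28.4), and the first rests on too few cells to stand for a class. *Scart2* gave 4 and 8 UMIs.

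CD8-like cells carried *Scart1* under the KO label in all 3 clusters. In memory CD8-like cells, which raised 9 of 10 markers of memory or innate-like memory CD8 T cells, *Scart1* gave 794 UMIs in 127 of 188 KO-labelled cells and 72 UMIs in 16 of 110 WT-labelled cells. The levels were 764 CPM (712 to 819) and 108 CPM (84.3 to 136), or a ratio of 7.09 (5.57 to 9.16). A single WT-labelled cell held 23 of the 72 UMIs. Thinned to 1500 UMIs, the shares of cells were 40.7% and 5.43%, and the unthinned ones 67.6% and 14.5%. *Scart2* was 100.1 CPM (81.8 to 121) and 38.9 CPM (25.4 to 57.0), or a ratio of 2.57 (1.66 to 4.12), with the gene in 46 of 188 and 14 of 110 cells.

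The largest ratio among the CD8-like clusters lay in naive CD8-like cells, which raised 10 of 10 naive T-cell markers. *Scart1* gave 141 UMIs in 41 of 126 KO-labelled cells and 9 UMIs in 4 of 941 WT-labelled cells. The levels were 253 CPM (213 to 298) and 2.23 CPM (1.02 to 4.24), or a ratio of 113 (58.0 to 253). Thinned shares of cells were 14.3% and 0.184%, and unthinned ones 32.5% and 0.425%. *Scart2* gave 24 UMIs in 11 KO-labelled cells and 1 UMI in a WT-labelled cell, or 43.1 CPM (27.6 to 64.1) and 0.248 CPM (0.00628 to 1.38). Their ratio of 174 had an interval from 28.3 to 7139.

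In effector CD8-like cells, which raised 10 of 10 effector CD8 markers, *Scart1* gave 72 UMIs in 11 of 70 KO-labelled and 2 UMIs in 2 of 123 WT-labelled cells. That is 256 CPM (199.98 to 322) against 4.23 CPM (0.512 to 15.3), or a ratio of 60.5 (16.1 to 509). *Scart2* was nearly absent there, with 1 and 0 UMIs. Cycling T-like cells had 168 and 5 *Scart1* UMIs, or 244 CPM (208 to 283) and 4.03 CPM (1.31 to 9.39), and 13 and 1 *Scart2* UMIs.

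The *Scart1* UMIs of CD8-like cells did not come with a δ chain. Of the 168 KO-labelled memory CD8-like cells without *Trdc*, 116 had *Scart1*, at 788 CPM (732 to 847), and of the 20 with *Trdc*, 11 had it, at 565 CPM (433 to 724). Of the 122 KO-labelled naive CD8-like cells without *Trdc*, 40 had *Scart1*, at 245 CPM (205 to 290). The antibody tags, which measure surface protein, gave the same cells as CD8 positive. The CD8a tag reached a median of 436 UMIs in KO-labelled memory CD8-like cells with *Scart1* and 389 in those without, and 598 and 535 in naive CD8-like cells. In type 17 γδ-like cells with *Scart1* its median was 1 UMI. At least 30 CD8a tag UMIs were found in 122 of 127 memory and 40 of 41 naive CD8-like cells with *Scart1*.

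Among CD4-like cells *Scart1* was rarer than among CD8-like cells. *Scart2* under the KO label was 51.8 CPM over both CD4-like clusters and 68.7 CPM over the 3 CD8-like clusters. Naive CD4-like cells had 9 *Scart1* and 9 *Scart2* UMIs under the KO label, in 90 cells, and 1 of each under the WT label, in 728 cells. Either gene was at 29.4 CPM (13.4 to 55.7) and 0.359 CPM (0.00910 to 2.002), or a ratio of 81.7 with an interval from 11.3 to 3581. The regulatory CD4-like cluster was named for 8 of 8 regulatory T-cell markers, but it also raised 10 of 12 markers of tissue-resident or effector CD4 T cells. Most of its cells had no UMI of *Foxp3*, the factor that defines regulatory T cells. Such a UMI was found in 23 of its 107 KO-labelled and 54 of its 192 WT-labelled cells. *Scart1* gave 25 UMIs in 5 of its 107 KO-labelled cells and 1 UMI in its 192 WT-labelled cells, and *Scart2* 29 UMIs in 6 cells and 0. None of these UMIs lay in the 23 KO-labelled and 54 WT-labelled cells with a *Foxp3* UMI, which at 3 counts allows up to 13.04% and 5.56% of such cells to have a UMI and does not bound the share expressing either gene. In the 84 KO-labelled cells without *Foxp3*, *Scart1* was 79.8 CPM (51.6 to 118) and *Scart2* 92.5 CPM (62.0 to 133).

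In NK-like cells, killer lymphocytes without a T-cell receptor, *Scart1* UMIs were found under the KO label alone. The gene gave 91 UMIs in 14 of 219 KO-labelled cells, at 88.6 CPM (71.4 to 109), and 0 UMIs in 2034 WT-labelled cells, which allows up to 0.383 CPM. The level was 232-fold higher with the WT-labelled count set to 3, and the exact lower bound of the ratio was 185. Thinned to 1500 UMIs, 4.53% of KO-labelled cells had the gene, and 6.39% without thinning. In the WT-labelled cells, 3 counts allow a share of cells with a UMI of up to 0.147%. The 14 cells were not spread evenly, since a single cell held 20 of the UMIs and 6 cells held 5 or more each. In 12 of the 14, the NK1.1 tag reached 30 UMIs, with a median of 60 UMIs against 74 in NK-like cells without *Scart1*, and their CD8a tag median was 1. *Trac* was 46.2 CPM in the 14 cells, on 3 UMIs in 2 of them, and 18.7 CPM in the other KO-labelled NK-like cells, against 308 CPM in KO-labelled T cells. A *Trdc* UMI was found in 5 of the 14, and *Scart1* was 68.0 CPM (51.7 to 87.6) in the 188 NK-like cells without *Trdc*. *Scart2* gave 9 UMIs in 3 KO-labelled NK-like cells and 0 in WT-labelled ones.

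Innate lymphoid-like cells had 0 *Scart1* UMIs in 8 KO-labelled and 151 WT-labelled cells, which allows up to 90.2 and 3.77 CPM, so the first is no measurement of absence. The 3 *Scart2* UMIs there lay in 1 WT-labelled cell. B-like cells had 1 *Scart1* UMI in 899 KO-labelled and 0 in 2740 WT-labelled cells, and *Scart2* the same. Alveolar macrophage-like cells had 0.350 CPM (0.168 to 0.643) and 0.307 CPM (0.172 to 0.506) of *Scart1*. The intervals of this background overlapped between the labels. Over all named classes other than T, NK and innate lymphoid cells, however, *Scart1* was 0.868 and 0.266 CPM, a ratio of 3.26 (2.005 to 5.45). Of the 57 KO-labelled UMIs there, 14 lay in 1 interstitial macrophage-like cell and another 14 in 1 epithelial-like cell. The higher KO-labelled level outside T, NK and innate lymphoid cells thus rests in part on single cells. The WT-labelled levels of naive CD4-like and regulatory CD4-like cells had intervals that reached this background, and are not read as expression.

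The order of *Scart1* levels was close under both labels. Under the KO label it ran from type 17 γδ-like through memory CD8-like and type 1 γδ-like to effector CD8-like, naive CD8-like and cycling T-like, then NK-like, regulatory CD4-like and naive CD4-like cells. Counting intervals overlapped between memory CD8-like and type 1 γδ-like cells, among the effector, naive and cycling classes, between NK-like and regulatory CD4-like and between regulatory and naive CD4-like cells. Under the WT label it ran from type 17 γδ-like through memory CD8-like and type 1 γδ-like to effector CD8-like, cycling T-like and naive CD8-like cells, and the intervals of those last 3 overlapped. For *Scart2*, type 17 γδ-like cells led under both labels. Under the KO label, type 1 γδ-like, memory CD8-like, regulatory CD4-like, naive CD8-like, naive CD4-like and cycling T-like cells followed, and each of these overlapped with its neighbours in that order. In the regulatory CD4-like cluster, all UMIs of both genes lay in cells without a *Foxp3* UMI.

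**Figure D3:**
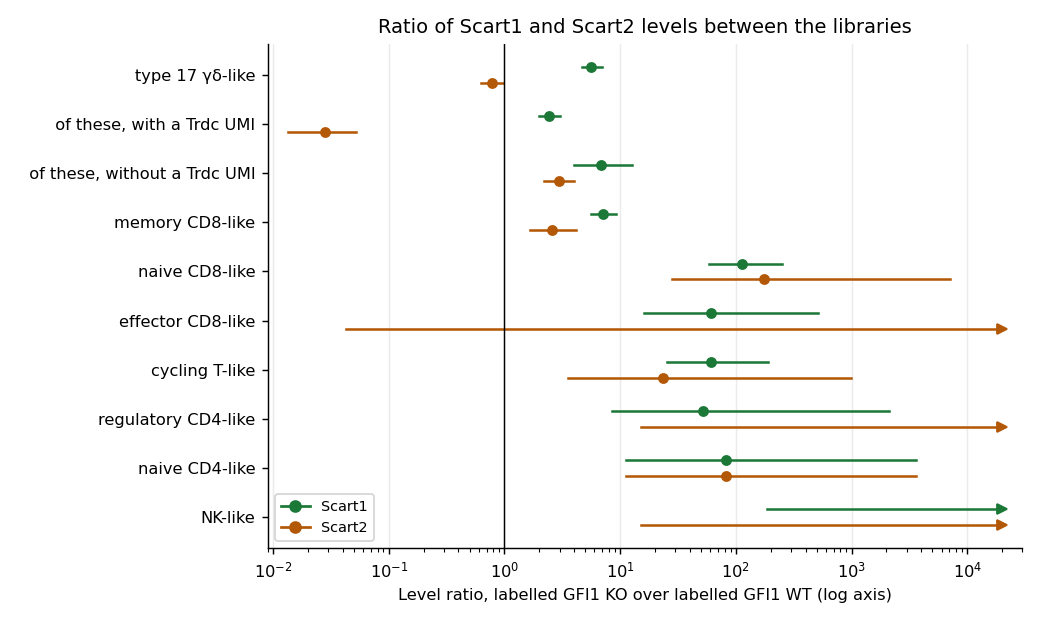
Ratio of the KO-labelled over the WT-labelled level of *Scart1* (green) and *Scart2* (orange) on a log axis, by T-cell class, by *Trdc* within the type 17 γδ-like cluster, and in NK-like cells; lines are exact 95% counting intervals, and an arrow without a point marks a class with 0 WT-labelled UMIs. *Scart1* ratios lay above 1 in every class shown, from 2.44 in type 17 cells with *Trdc* to 113 in naive CD8-like cells among the T-cell classes and with a lower bound of 185 in NK-like cells, and *Scart2* ratios lay on both sides of 1.

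The number of molecules per cell differed between γδ-like and CD8-like cells. Among KO-labelled type 17 γδ-like cells with *Scart1*, the median was 14 UMIs, the highest cell had 47, and 56 of the 146 cells had 10 or more. In memory CD8-like cells with the gene, the median was 5 UMIs, the highest 34, and 22 of 188 cells had 10 or more. In naive CD8-like cells, the median was 2, the highest 17, and 4 of 126 cells had 10 or more. Naive and memory CD8-like cells had higher total UMIs per cell, with medians of 6937 and 8674 against 5156 in type 17 γδ-like cells. Under the WT label, 4 of 69 type 17 γδ-like and 2 of 110 memory CD8-like cells had 10 or more, so the few positive cells there included some at the same level. For *Scart2*, 4 KO-labelled and 5 WT-labelled type 17 γδ-like cells had 10 or more, and 0 memory CD8-like cells.

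**Figure D4:**
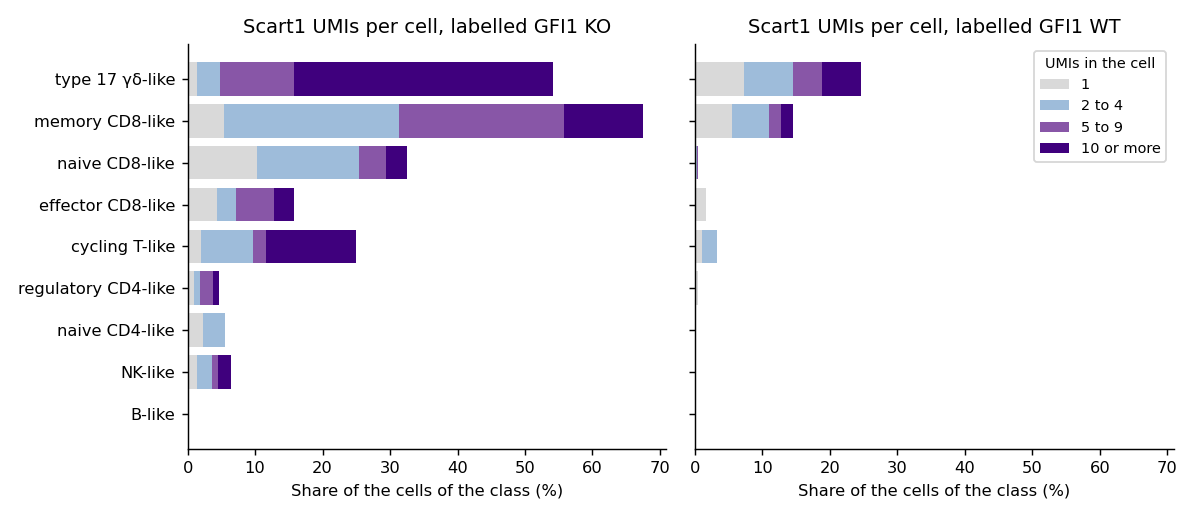
Share of the cells of each class, in percent, with 1, 2 to 4, 5 to 9, or 10 or more *Scart1* UMIs, in the KO-labelled (left) and WT-labelled (right) libraries, without thinning. KO-labelled type 17 γδ-like cells were mostly at 10 or more UMIs where they had any, memory CD8-like cells mostly at 2 to 9, and WT-labelled classes other than type 17 γδ-like and memory CD8-like were at or near 0.

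Cells of the type 17 γδ-like cluster with a *Scart1* UMI were then set beside cells without one in the KO-labelled library, gene by gene. This split uses the measured gene, so it describes the cells and tests nothing. Of 4519 genes with at least 30 UMIs, 143 (3.16%) were at least 2-fold higher and 131 (2.90%) at least 2-fold lower in the 79 cells with *Scart1*, each with its counting interval on that side of 1. Genes of the δ chain and of the γδ lineage led the first set. *Trdc* gave 880 UMIs in 65 of the 79 cells and 1 UMI in the 67 others, 2154 against 3.79 CPM. *Trdv4* and *Trgv6* gave 138 and 40 UMIs against 0, or 29.7-fold and 8.61-fold higher against 3 counts. *Sox13*, a transcription factor of γδ T-cell development, gave 45 UMIs in 32 cells against 0. *Areg*, the growth factor amphiregulin, was 1197 CPM in cells with *Scart1* against 98.6 CPM, a ratio of 12.1 (8.19 to 18.8).

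The remaining genes chosen by the same rule of size were *Auts2*, *Frmd5*, *Hacd4*, *Cpne8* and *Ube2c* on the higher side, and *Ube2c*, which acts in mitosis, was found in only 6 cells. On the lower side stood *Scart2* itself, at 51.4 against 754 CPM, a ratio of 0.0681 (0.0413 to 0.107). *Igfbp7* gave 0 against 52 UMIs, and *Plekhg1* 13 against 192 UMIs. Of the others on that side, the kinase *Lck* had a ratio of 0.154 (0.0894 to 0.253), the costimulatory receptor *Cd28* 0.169 (0.108 to 0.256) and the CD40 ligand *Cd40lg* 0.151 (0.0961 to 0.229). *Ctla2a*, *Espn*, *Vmn2r96* and *Tiparp* completed the set.

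The gene lists gave the same picture by role. Of the 13 γδ T-cell genes, 7 were higher and 0 lower, with a median log2 ratio of 1.22 against 0.00 over all genes. Of the 23 measured genes of the type 17 program, 2 were higher, *Blk* and *Sox13*, and 0 lower, with a median log2 ratio of 0.01. Its central members were close to equal between cells with and without *Scart1*. *Il17a*, the cytokine gene, was 1390 and 1118 CPM, a ratio of 1.24 (1.08 to 1.44). *Maf*, a factor of the same program, had a ratio of 1.1998 (0.992 to 1.46), and *Zbtb16*, a factor of innate-like T cells, 0.856 (0.754 to 0.971). *Trac* had a ratio of 0.301 (0.210 to 0.427). For cells split by *Scart2* instead, 0 of the 13 γδ genes were higher and 7 lower, against 118 genes (2.61%) higher and 142 (3.14%) lower of the 4519. *Cd28*, *Plekhg1* and *Ctla2a* were then higher, by 6.76 (4.52 to 10.4), 6.05 (4.38 to 8.47) and 4.95 (3.57 to 6.95).

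**Figure D5:**
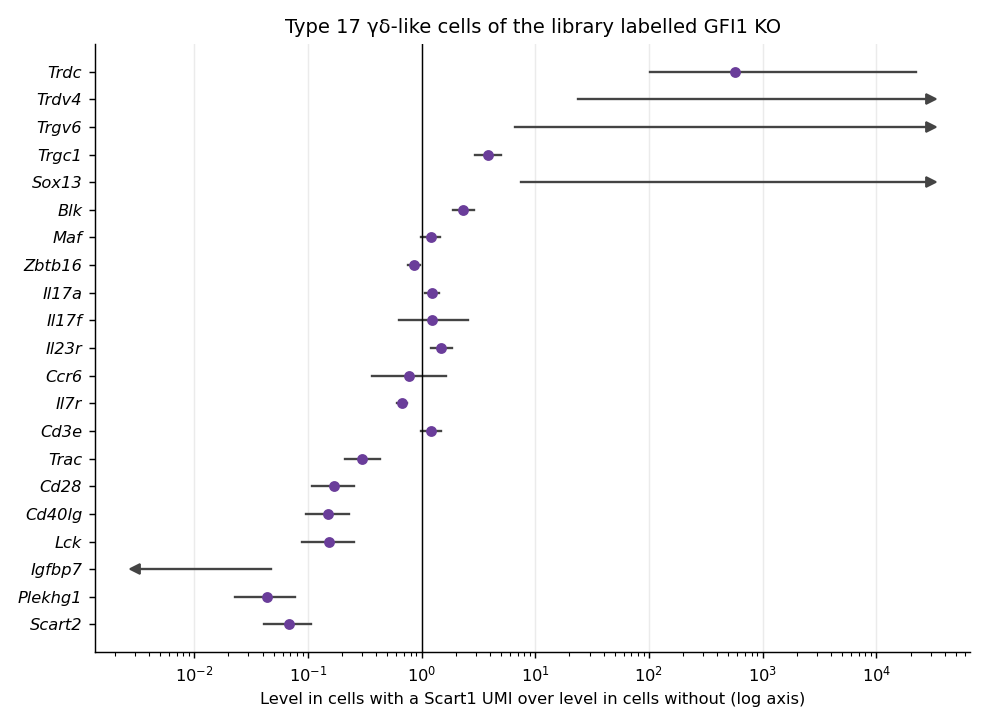
Ratio of the level in cells with a *Scart1* UMI to that in cells without, on a log axis, for 21 genes in KO-labelled type 17 γδ-like cells (79 and 67 cells); points are ratios, lines exact 95% counting intervals, and arrows mark genes with 0 UMIs in one of the sets. Genes of the γδ receptor lay far to the right, *Maf*, *Zbtb16* and *Il17a* near 1, and *Trac*, *Cd28*, *Cd40lg*, *Lck* and *Scart2* to the left.

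In the WT-labelled library, the same split of the cluster compared 17 with 52 cells, and 73 of 2694 genes (2.71%) were higher and 92 (3.41%) lower. *Trdc* was again higher, at 59 against 25 UMIs, a ratio of 8.75 (5.39 to 14.6). *Trgc1*, a constant segment of the γ chain, was the other of 2 higher genes among the 9 measured γδ genes. *Ccl5*, *Nkg7* and *Gzma*, genes of cytotoxic cells, were lower, with 0, 1 and 0 UMIs in cells with *Scart1* against 107, 67 and 38. Those of the cells without *Scart1* lay in only 5, 19 and 7 of the 52 cells, so *Ccl5* and *Gzma* rest on few cells. *Cd28*, among the 10 lowest under the KO label, had a ratio of 0.798 (0.414 to 1.44) here.

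Among KO-labelled memory CD8-like cells, only 1 of the 13 γδ genes reached 30 UMIs, and it was neither higher nor lower with *Scart1*. Of 5707 genes, 65 (1.14%) were higher and 64 (1.12%) lower in the 127 cells with *Scart1* than in the 61 without. *Ccl4* and *Ifng*, a chemokine and the cytokine interferon γ, were lower, with ratios of 0.0991 (0.0448 to 0.198) and 0.199 (0.104 to 0.365). *Tnip3* and *Lyn* were also lower, and *Scart2* had a ratio of 0.356 (0.236 to 0.534). *Gzma*, a protease of cytotoxic granules, was higher at 31 against 2 UMIs, a ratio of 7.53 (1.92 to 64.9). *Ifitm1* gave 60 UMIs against 0, but all of them lay in 2 cells. Of the 10 memory CD8 genes, 0 were higher or lower, and of the 9 measured naive genes also 0. Among WT-labelled cells, 16 stood against 94, and 65 of 4378 genes (1.48%) were higher and 114 (2.60%) lower. *Ikzf2*, a transcription factor of the Ikaros family, was lower under both labels, with ratios of 0.367 (0.223 to 0.5999) and 0.0459 (0.00115 to 0.261).

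*Ikzf2* had the opposite direction in naive CD8-like cells. It gave 150 UMIs in 21 of 41 KO-labelled cells with *Scart1* and 67 UMIs in 16 of 85 cells without, 710 against 194 CPM, a ratio of 3.67 (2.73 to 4.97). In this class, 47 of 3755 genes (1.25%) were higher and 46 (1.23%) lower. *Plcl1*, *Otulinl*, *Slc7a1* and *Fry* were among the higher genes, with ratios from 2.55 to 3.74, and *Auts2*, *Usp8* and *Gem* among the lower, with ratios from 0.226 to 0.398. The share of cells with *Auts2* was nearly the same in both sets, at 9 of 41 with *Scart1* and 20 of 85 without. Of the 10 naive genes, 0 were higher or lower, with a median log2 ratio of -0.06, and *Ccl5* was the only lower one among the CD8 genes, on 56 UMIs that lay in 3 of 85 cells against 16 UMIs in 4 of 41 cells with *Scart1*. Median depth was 7955 UMIs in cells with *Scart1* and 6402 in those without, and the part of depth in these ratios was not tested.

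In effector CD8-like cells, 11 KO-labelled cells with *Scart1* stood against 59, and 81 of 2113 genes (3.83%) were higher and 77 (3.64%) lower. *Gzma* was 2.80 times higher (2.41 to 3.24), and *Ctla4*, an inhibitory receptor, had a ratio of 0.182 (0.0489 to 0.480). *Pdcd1*, which encodes the inhibitory receptor PD-1, gave 0 against 37 UMIs. In NK-like cells, 14 cells stood against 205, and 138 of 5502 genes (2.51%) were higher and 91 (1.65%) lower. *Klra8*, an NK receptor, was higher at 2.001 (1.66 to 2.39), while *Klra3*, a receptor of the same family, was lower at 0.267 (0.0720 to 0.692), with 4 UMIs in 1 of the 14 cells. *Eomes*, a factor of NK cells, also had a ratio of 0.465 (0.238 to 0.822). *Trdc* was also higher, with 7 against 35 UMIs, a ratio of 2.96 (1.11 to 6.76).

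Across 39 classes and libraries with at least 20 cells, the gene whose level was most like that of *Scart1* was *Scart2*, with Pearson's r of 0.86 on log2(CPM + 10) among 14582 genes. *Adgrg5*, an adhesion receptor, followed at 0.78, *Trdc* at 0.75, the chemokine receptor *Ccr10* at 0.75 and *Trgc1* at 0.71. Nearest to *Scart2*, after *Scart1*, were *Trgc1* at 0.82, the water channel *Aqp3* at 0.82, the potassium channel *Kcnc1* at 0.79 and the interleukin 23 receptor *Il23r* at 0.78. *Ccr10* was highest in KO-labelled cycling T-like cells, at 73.9 CPM, and next in KO-labelled memory CD8-like cells, at 54.9 CPM. These correlations are descriptions, since the points share 2 libraries and classes with nearly no *Scart1* or *Scart2* weigh heavily.

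Other genes of the scavenger receptor cysteine-rich family had ratios on both sides of 1. In the named T-cell clusters, 5 of the 24 other family genes had at least 30 UMIs. The share of all genes with a ratio interval off 1 in these cells was not computed. The ratios below therefore describe single genes and not the family. *Prss12*, a protease with such domains, was 102 and 29.9 CPM in KO-labelled and WT-labelled cells, a ratio of 3.39 (2.93 to 3.93). *Lgals3bp*, a secreted protein that binds galectin 3, had a ratio of 1.87 (1.61 to 2.18). *Cd5*, a brake on T-cell receptor signalling, was 141 and 176 CPM, a ratio of 0.801 (0.728 to 0.880). *Cd6*, its close relative, had 139 and 166 CPM, a ratio of 0.838 (0.761 to 0.921). The ratios of *Scart1* and *Scart2* in the same cells, 32.0 and 6.29, were further from 1 than any of these. Of the macrophage receptors of the family, *Msr1* and *Marco* gave 190 and 68 UMIs in the whole KO-labelled T compartment but only 3 and 2 in its named clusters, so almost all of them lay in the unnamed clusters with many called doublets. *Cd163*, the haemoglobin receptor of macrophages, gave 0 and 3 UMIs in the named clusters.

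Among all genes, *Scart1* stood at or near the top of the difference between the labels. Genes were ranked in each class by the lower bound of their ratio, KO-labelled over WT-labelled. In naive CD8-like cells, *Scart1* ranked 1 of 8785 genes with at least 30 UMIs, and 14 (0.159%) were at least 4-fold higher and 81 (0.922%) at least 4-fold lower under the KO label. It also ranked 1 of 4707 in effector CD8-like cells, with 16 (0.340%) higher and 11 (0.234%) lower, and 1 of 9892 in NK-like cells, with 79 (0.799%) higher and 146 (1.48%) lower. In memory CD8-like cells it ranked 4 of 6959, with 28 (0.402%) higher and 8 (0.115%) lower, after *Ccr10*, *Klra5* and *Ifitm1*. In type 17 γδ-like cells it ranked 26 of 5729, with 100 (1.75%) higher and 75 (1.31%) lower, behind such genes as *Tmeff2*, *Stmn2*, *Areg* and *Zeb2*. *Scart2* was among the genes with at least 30 UMIs in type 17 γδ-like and memory CD8-like cells and in the T compartment as a whole, and there it ranked 2855, 51 and, of 12069 genes with 199 (1.65%) higher and 171 (1.42%) lower, 126. In the CD4-like classes neither gene reached 30 UMIs, so neither was ranked. Of 7932 genes in naive CD4-like cells, 7 (0.0883%) were higher and 84 (1.06%) lower, and of 6216 in regulatory CD4-like cells, 13 (0.209%) were higher and 25 (0.402%) lower. Since both genes were chosen for this pattern, the ranks describe them and support nothing.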

How the data were processed

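The authors deposited raw UMI counts per gene and called cell, not normalized. Per the submitters' processing notes, they were made with Cell Ranger 9.0.1 on GRCm39 (mm39). Cells with at least 500 UMIs, at least 200 genes and at most 20% mitochondrial UMIs were kept and clustered with Python 3.11.15, scanpy 1.11.5, leidenalg 0.10.2, numpy 2.4.6 and scipy 1.17.1, using 2000 variable genes, 50 components, 15 neighbours and Leiden resolution 0.8. T-cell clusters were clustered again. Classes were named from marker lists, with at least 3 markers raised 1.5-fold and seen in 5% of cells. Doublets were kept, and Scrublet called 346 (3.30%) KO-labelled and 1145 (5.92%) WT-labelled cells. CPM denominators left out 9548 ribosomal, mitochondrial and Gm genes. Ratios have conditional binomial and shares Clopper-Pearson intervals, and counts of 0 were set to 3. Thinned shares are expected values over random draws of a cell's UMIs. Named genes were *Scart1*, *Scart2*, *Gfi1*, members of counted lists, the 5 genes most like each, and the 10 highest and 10 lowest ratios between cells with and without *Scart1*, by the bound nearer to 1 among genes with 30 UMIs. *Il17a*, *Maf*, *Zbtb16*, *Trac*, *Foxp3*, the family genes singled out and the genes of the *Scart2* split were chosen with their values known. The genes and lists were chosen with earlier results of these data known, and the naming thresholds, the *Trdc* and *Foxp3* splits and the 30 tag UMIs after seeing the data. The values of some genes counted within the lists are not reported here. The ratio intervals were tested on simulated Poisson counts, which do not gather in few cells, and the thinning formula against random draws.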

Additional observations from a re-analysis of the deposited data

Results flagged for a closer look

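The direction of the *Scart2* difference between the labels was not the same in all T cells. The KO-labelled over WT-labelled level ratio was 0.782 (0.631 to 0.971) in type 17 γδ-like cells and 2.57 (1.66 to 4.12) in memory CD8-like cells. Inside the type 17 γδ-like cluster, it was 0.0279 (0.0134 to 0.0525) in cells with a *Trdc* UMI and 2.93 (2.19 to 3.98) in cells without one. These pairs stand out because the counting intervals lie on opposite sides of 1. With 1 library per label the difference between the ratios was not tested. The values rest on 66 and 18 cells with *Trdc*, and on 80 and 51 without.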

How the results depend on the processing

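No paired analysis was possible because each label has 1 library. The *Scart1* log2 ratio in both γδ-like clusters, 4.09 as reported, was 2.515 at resolution 0.5, 3.67 in thinned cells, 3.71 by single-cell markers and 3.57 with *Trdc* and low CD4 and CD8a tags. In CD8-like cells, 5.06 became 5.48 in thinned cells. The NK-like value against 3 counts, 7.86, became 6.50 in thinned cells and 7.09 by single-cell markers. The *Scart2* log2 ratio in both γδ-like clusters, 1.34, turned to -0.30 (-0.61 to 0.01) at resolution 0.5, -1.92 by single-cell markers and -3.64 with *Trdc* and low tags. The difference in shares of T cells with *Scart1*, 20.7 points, was 30.9 without thinning and 26.4 at 3000 UMIs, and for *Scart2*, 5.71 points, it was 13.2 and 8.33. At resolution 0.5, the class held 148 and 69 cells, without most type 1 cells. The cause of the other moves was not tested. Clustering each library on its own gave a value for CD8-like cells but none for γδ-like or NK-like cells. Those planned checks are missing from the count that follows. Of 48 alternatives, 34 stayed within the counting interval of the reported value, 11 moved with the same direction and 3 reversed. They include leaving out doublets and, added after seeing the data, cells with shared barcodes or in unnamed T clusters. With 1 library per label, no mouse-to-mouse spread is known, and classes under 20 cells, such as KO-labelled type 1 γδ-like and innate lymphoid-like cells, are too small to bound a level well.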

Other observations

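Outside T, NK and innate lymphoid cells, *Scart1* UMIs were few but not evenly spread. Named classes there held 57 UMIs in 7051 KO-labelled cells and 25 UMIs in 12444 WT-labelled cells. A single KO-labelled interstitial macrophage-like cell held 14 of them, and a single epithelial-like cell another 14, while the most in a WT-labelled cell was 1. KO-labelled monocyte-like cells had 18 *Scart1* UMIs in 3202 cells, and WT-labelled ones 0 in 401. Scrublet called 30 of the 367 KO-labelled cells with *Scart1* doublets (8.17%) and 15 of the 93 WT-labelled ones (16.1%), above the shares over all cells of 3.30% and 5.92%. T-cell clusters without a name held 214 and 46 *Scart1* UMIs, or 97.6 and 10.3 CPM.

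*Il17a* was found in the type 17 γδ-like cluster both with and without *Trdc*. Under the KO label, it was 1469 CPM in cells with *Trdc* and 1078 CPM in cells without, and under the WT label 452 and 67.0 CPM, ratios of 3.25 (2.30 to 4.75) and 16.1 (10.0 to 27.5). *Zbtb16* had ratios of 1.67 (1.29 to 2.20) and 0.576 (0.513 to 0.645) in the same cells. The WT-labelled *Il17a* values rest on few cells. In that cluster the gene gave 7 UMIs in 4 of 17 cells with *Scart1* and 45 UMIs in 8 of 52 without. The counting intervals take no account of UMIs gathered in few cells.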
